A study of Homo sapiens with 12 samples.

Results

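The immediate-early genes EGR1, EGR2, EGR3, NR4A1, NR4A3, FOS, FOSB, JUN, JUNB and IER2 were followed through exposure of a lymphoma cell line to inhibitors of SYK and of BET proteins. These 10 genes were chosen by symbol from the 46863 gene symbols of the deposited count table, and each symbol was found there once. The study asked how simultaneous inhibition of SYK and BET proteins altered gene expression in SU-DHL-4, an established line of diffuse large B-cell lymphoma that was grown from a peritoneal effusion and is labelled wild type. Cells were exposed for 72 h to DMSO (the solvent control), to 1 µM Entospletinib (Ento, an inhibitor of the kinase SYK), to 0.01 µM AZD5153 (AZD, a bivalent inhibitor of BET proteins), or to both agents at these doses (Ento+AZD). Each of the 4 groups had 3 libraries of polyadenylated RNA, numbered 1 to 3 by the labels, so all values describe 1 cell line at 1 time point.

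Immediate-early genes are transcribed within minutes of a stimulus without new protein synthesis. In B cells the antigen receptor activates the kinases LYN and SYK, which signal through BTK, PLCG2 and RASGRP proteins to the ERK kinases. ERK phosphorylates partners of the serum response factor SRF, and the induced genes encode transcription factors: the FOS and JUN proteins pair to form AP-1, the EGR proteins bind GC-rich sites through zinc fingers, and NR4A proteins are orphan nuclear receptors. BET proteins bind acetylated histones at promoters and enhancers and promote transcription. Transcripts of this class are short-lived, so their level after 72 h is a standing level and not the first response to the agents.

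The SRF binding motif, the CArG box, is shown for the members that hold it in the 400 bases before the RefSeq start site, together with the AP-1-like site of the JUN promoter. Capitals mark the motif. The sequence was read from GRCh38 by the RefSeq start sites, 5′ to 3′ on the strand of the gene. The EGR1 windows are chr5:138465079-138465144 and chr5:138465354-138465425 (plus strand), the FOS window is chr14:75278494-75278543 (plus strand), the FOSB window is chr19:45467702-45467751 (plus strand) and the JUN window is chr1:58784087-58784134 (minus strand).
EGR1 distal: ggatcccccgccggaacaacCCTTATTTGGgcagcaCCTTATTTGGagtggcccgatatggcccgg
EGR1 proximal: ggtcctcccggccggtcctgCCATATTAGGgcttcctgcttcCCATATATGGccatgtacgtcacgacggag
FOS: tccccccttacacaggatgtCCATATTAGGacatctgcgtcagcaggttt
FOSB: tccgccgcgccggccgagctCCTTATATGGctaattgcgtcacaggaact
JUN: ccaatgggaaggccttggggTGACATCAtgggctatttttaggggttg

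With both strands searched, the CArG box stood 4 times in the EGR1 window, at -380, -364, -105 and -83 from the start site, once in the FOS window at -314 and once in the FOSB window at -274. It occurred in 1.89% of 27305 promoter windows of this length. RefSeq promoters were given for 9 of the 10 members, all but EGR3. The cyclic AMP response element TGACGTCA was found in FOSB and in 2.03% of all windows, and the JUN letters TGACATCA in 2.99% of all windows. A TATA box (TATAAA) stood at -33 in FOS, -30 in FOSB and -31 in JUNB. These letters occurred in 17.7% of all windows, counted at any position and not only near these places. The AP-1 letters TGACTCA (6.08% of all windows) and the EGR letters GCGTGGGCG (0.941%) were in none of the 9 member windows. A match of letters is a description and does not show that a factor was bound.

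Most members were small genes with few exons. The canonical GENCODE transcripts of JUN (chr1:58776845-58784048, minus strand) and JUNB (chr19:12791486-12793315, plus strand) had 1 exon. EGR1 (chr5:138465479-138469303, plus strand), IER2 (chr19:13150411-13154911, plus strand), EGR2 and EGR3 had 2 exons, and FOS (chr14:75278826-75282230, plus strand) and FOSB (chr19:45467995-45475179, plus strand) had 4. NR4A1 (chr12:52022832-52059507, plus strand) had 7 and NR4A3 8, close to the median of 9 exons over 11532 tested coding genes. The pentamer ATTTA, a part of the AU-rich elements through which ZFP36 proteins destabilize transcripts, did not mark the set as a whole. It occurred 6.2 times per kb of the 3′ untranslated region in FOS, 5.37 in NR4A1, 4 in JUNB, 3.31 in NR4A3 and 2.34 in JUN, against a median of 1.64. EGR2 (1.65) stood at the median, and FOSB (1.38), EGR3 (1.07), EGR1 (0.818) and IER2 (0) were below it. The nonamer TTATTTATT was present in FOS alone of the 10 members and in 9.24% of the coding genes. Exons of other genes overlap NR4A1 (NR4A1AS), JUNB (HOOK2), EGR3 and IER2 on the opposite strand, and EGR2 on its own strand. The use of strand in the counting is not given in the sources used here, so reads of these genes cannot be told from those of their partners.

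Total counts lay between 18121993 and 24675830 per library, so that 1 count was worth 0.0393 to 0.0564 CPM (read counts scaled to the library size after TMM normalization). The 10 members took 0.00765% to 0.0220% of all counts. Of the B-cell markers fixed for the line all 9 were tested, and their summed level lay between 4769.8 and 6939.1 CPM with DMSO and between 6594.3 and 8446.1 CPM with Ento+AZD. The T-cell markers CD3D and CD2 were at 0 counts in all 12 libraries, while CD8A had at most 3 counts and CD3E had 9 to 51. The monocyte marker CD14 had at most 3 counts, LYZ at most 2 and CSF1R 2 to 7. The defining B-cell markers were thus present, and of the monocyte markers ITGAM had 7 to 49 counts. In a bulk sample fewer expressing cells and less RNA per cell cannot be told apart. Mitochondrial transcripts took 1.72% to 1.96% of the counts with DMSO, 1.77% to 2.23% with Ento, 1.69% to 2.19% with AZD and 2.27% to 2.74% with Ento+AZD, and the part of this shift in the results was not tested.

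A basal level of AP-1 and IER2 transcripts was present without any agent. Per kb of transcript, the DMSO levels were 23.1 CPM for JUNB, 22.8 for IER2, 8.30 for JUN, 4.49 for FOS, 4.48 for NR4A1, 2.89 for EGR1 and 1.12 for FOSB. JUNB and IER2, and likewise FOS and NR4A1, were next to each other with differences well below the spread of their libraries. The place of JUN rested on replicate 1: its libraries ran from 1.67 to 18.5 CPM per kb, and without DMSO replicate 1, an omission chosen after the values were seen, its mean was 3.21, below NR4A1 at 4.78. The mean of FOS without that library was 2.86. EGR3 (0.0431), NR4A3 (0.0386) and EGR2 (0.0191) stood near the limit of detection. The last 3 genes did not pass the count filter (10 counts in enough libraries of 1 group), and 7 of the 10 members were tested among 16835 genes.

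**Figure D1:**
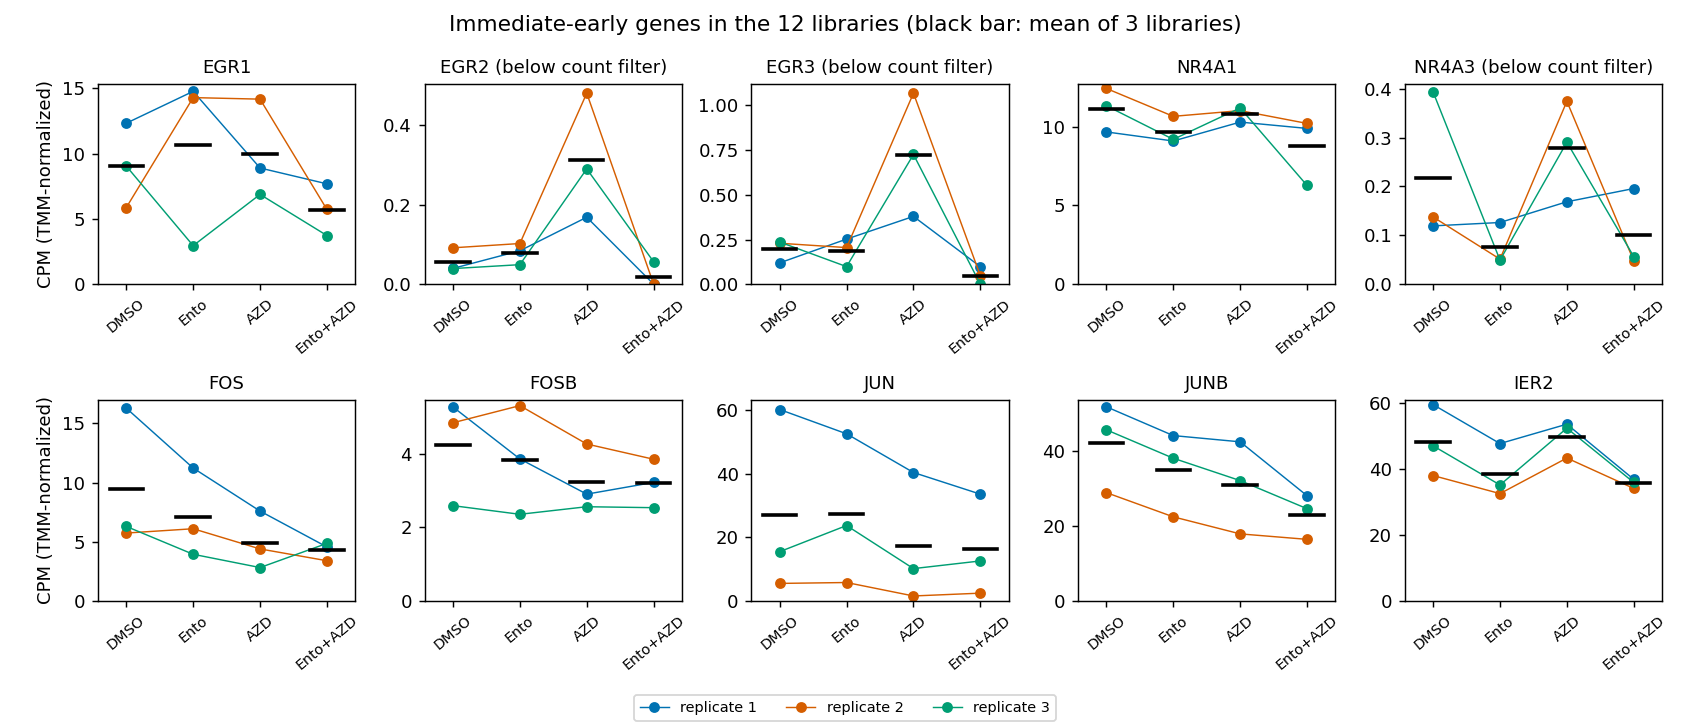
TMM-normalized CPM of each of the 10 genes (vertical axis, starting at 0) in the 12 libraries by treatment group (horizontal axis), with libraries of the same replicate number joined and the mean of 3 libraries as a black bar. JUNB fell in each replicate number from DMSO to Ento+AZD, JUN was spread over the replicate numbers within each group, and EGR2 and EGR3 were highest with AZD at below 1.1 CPM.

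Exposure to the combination left every tested member at a lower fitted level than DMSO, a sign shared by 48.9% of all genes, and 4 of 7 were called (edgeR's quasi-likelihood test, Benjamini-Hochberg adjusted p under 0.05 over all 16835 genes), all of them lower. These were JUN, FOS, JUNB and IER2. The share of all genes called lower in this comparison was 20.8%. AZD as a single agent lowered JUN, FOS and JUNB, 3 of 7, with 12.7% of all genes called lower and 9.57% higher. Ento as a single agent gave 0 called members, with 8.32% of all genes called in either direction (4.66% higher and 3.66% lower), and 2 members, JUNB and IER2, had an unadjusted p under 0.05. DESeq2 called 0, 3 and 4 members with Ento, AZD and Ento+AZD. The median log2 fold change of the 7 members was -0.21 with Ento, -0.38 with AZD and -0.73 with Ento+AZD, beside 0.01 over all tested genes in each. The 3 comparisons share the DMSO libraries.

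**Figure D2:**
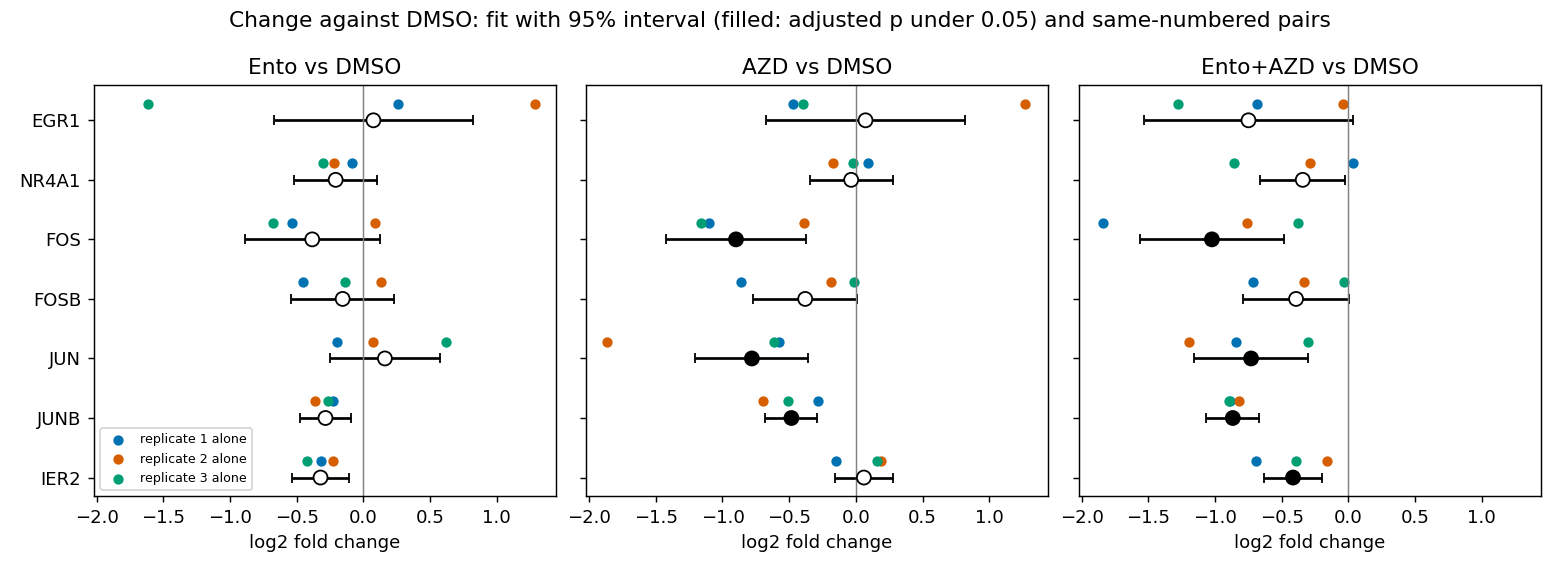
Log2 fold change against DMSO (horizontal axis) of the 7 tested genes for Ento, AZD and Ento+AZD, with the fitted value and its 95% interval (filled where the edgeR adjusted p was under 0.05) and the difference within each replicate number as coloured points. The JUNB points of the 3 replicate numbers lie between -0.82 and -0.89 with Ento+AZD, while those of EGR1 with Ento run from -1.62 to 1.28.

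JUNB, an AP-1 subunit of activated lymphocytes, had the smallest standard errors of the 7 tested members. Its level with DMSO was 51.9, 28.95 and 45.8 CPM in replicates 1, 2 and 3. With Ento it was 44.2, 22.5 and 38.2 CPM, and with AZD 42.6, 17.9 and 32.2 CPM. With Ento+AZD it was 28.1, 16.4 and 24.7 CPM. Within each replicate number the order was DMSO, Ento, AZD, Ento+AZD from high to low, and the Ento+AZD libraries did not overlap with those of DMSO. JUNB fell by 0.87 on the log2 scale with Ento+AZD (SE 0.09, edgeR adjusted p = 1.64e-05), a fold of 0.549. It fell by 0.48 with AZD (SE 0.09, edgeR adjusted p = 0.00288), and with Ento the difference of -0.28 (95% interval -0.48 to -0.09) missed the threshold (edgeR adjusted p = 0.0678). These calls for AZD and Ento+AZD stood without any single library, while without the replicate number as a term the edgeR adjusted p was 0.469 and 0.0937.

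JUN, the AP-1 subunit that gave the family its name, was lower wherever AZD was present. It measured 60.2, 5.45 and 15.4 CPM with DMSO and 52.6, 5.73 and 23.7 CPM with Ento. With AZD it measured 40.4, 1.5 and 10.1 CPM, and with Ento+AZD 33.6, 2.38 and 12.5 CPM. The groups overlapped widely, because replicate 1 was high and replicate 2 low in every group, yet both AZD groups were below DMSO within all 3 replicate numbers. The fitted log2 fold change was -0.78 with AZD (SE 0.20, edgeR adjusted p = 0.0136) and -0.73 with Ento+AZD (SE 0.20, edgeR adjusted p = 0.0101). With Ento it was 0.16 (95% interval -0.25 to 0.57). Without the replicate number as a term the edgeR adjusted p was 0.791 with AZD and 0.673 with Ento+AZD. The AZD call was lost without DMSO replicate 1 (-0.71) or AZD replicate 3 (-0.72), and the Ento+AZD call without replicate 1 of either group (-0.67 in each case).

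FOS, the partner of JUN proteins in AP-1 and a classical target of SRF, was the single member to reach the DEG threshold of a log2 change over 1. It measured 16.3, 5.73 and 6.29 CPM with DMSO and 11.2, 6.09 and 3.93 CPM with Ento. It measured 7.59, 4.38 and 2.81 CPM with AZD and 4.55, 3.38 and 4.85 CPM with Ento+AZD. All Ento+AZD libraries were below all DMSO libraries, while the AZD and DMSO libraries overlapped. FOS fell by 1.02 on the log2 scale with Ento+AZD (SE 0.25, edgeR adjusted p = 0.00527) and by 0.90 with AZD (SE 0.25, edgeR adjusted p = 0.0187). DEGs with a lower level made up 4.89% of all genes with Ento+AZD. The Ento difference was -0.38 (95% interval -0.89 to 0.12). Within the replicate numbers the Ento+AZD differences were -1.84, -0.76 and -0.37, so replicate 1 carried the largest share. The Ento+AZD call was lost without Ento+AZD replicate 1 (-0.63), the AZD call without DMSO replicate 1 (-0.66) or AZD replicate 3 (-0.75), and without the replicate number as a term the edgeR adjusted p was 0.118 and 0.292.

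FOSB, a FOS relative whose promoter also holds a CArG box, was lower with both AZD exposures by values that missed the threshold. It measured 5.29, 4.86 and 2.59 CPM with DMSO and 3.87, 5.32 and 2.36 CPM with Ento. It measured 2.91, 4.28 and 2.56 CPM with AZD and 3.23, 3.86 and 2.54 CPM with Ento+AZD. The groups overlapped, and replicate 3 was the lowest library of every group. The log2 fold changes were -0.38 with AZD (edgeR adjusted p = 0.151) and -0.39 with Ento+AZD (95% interval -0.79 to 0.00, edgeR adjusted p = 0.107).

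IER2, a nuclear protein of rapid growth-factor responses, differed from the AP-1 genes in its order across groups. It measured 59.5, 38.0 and 47.0 CPM with DMSO and 53.6, 43.3 and 52.4 CPM with AZD. With Ento it measured 47.7, 32.5 and 35.1 CPM, and with Ento+AZD 36.8, 34.1 and 35.9 CPM. Levels were thus close in DMSO and AZD, and lower in both groups that contained Ento. IER2 fell by 0.41 on the log2 scale with Ento+AZD against DMSO (SE 0.10, edgeR adjusted p = 0.00529), with no overlap between the libraries. The change with Ento was -0.32 (95% interval -0.54 to -0.10, edgeR adjusted p = 0.0653) and with AZD 0.06 (95% interval -0.15 to 0.28). The Ento+AZD call was lost without Ento+AZD replicate 1 (-0.31), and without the replicate number as a term the edgeR adjusted p was 0.101.

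EGR1, the zinc-finger factor most often used as a readout of B-cell receptor and ERK activity, had no call in any comparison. It measured 12.3, 5.86 and 9.04 CPM with DMSO and 14.8, 14.3 and 2.95 CPM with Ento. It measured 8.89, 14.2 and 6.87 CPM with AZD and 7.68, 5.72 and 3.72 CPM with Ento+AZD. From high to low the mean order was Ento (10.7 CPM), AZD (9.97), DMSO (9.07) and Ento+AZD (5.71), and no neighbours in this order differed beyond their spread. The Ento difference was 0.26 and 1.28 in replicates 1 and 2 and -1.62 in replicate 3. Its fitted value of 0.08 had a 95% interval from -0.67 to 0.82, wide enough to hold a change by 1.5 times in either direction. With Ento+AZD, EGR1 was below DMSO in 3 of 3 replicate numbers (-0.75, SE 0.37, edgeR adjusted p = 0.118). After removal of the replicate number, the spread of EGR1 within groups (SD 0.58 on the log2 scale) was larger than that of 98.9% of the tested genes.

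NR4A1, an orphan nuclear receptor induced by antigen receptor signals, was among the steadier members. It measured 9.66, 12.4 and 11.3 CPM with DMSO and 9.08, 10.6 and 9.19 CPM with Ento. It measured 10.3, 11.01 and 11.2 CPM with AZD and 9.88, 10.2 and 6.26 CPM with Ento+AZD. All groups overlapped with DMSO, and Ento+AZD replicate 3 lay below every other library. The Ento+AZD change of -0.34 (SE 0.15) missed the threshold (edgeR adjusted p = 0.0809), and the AZD change was -0.03 (95% interval -0.35 to 0.28).

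EGR2, EGR3 and NR4A3 were at the limit of detection, and the AZD group held most of the EGR2 and EGR3 reads. EGR3, which acts with EGR2 in lymphocyte activation, had 3, 5 and 6 counts with DMSO, 6, 4 and 2 with Ento, 9, 20 and 15 with AZD and 2, 1 and 0 with Ento+AZD. EGR2 had 1, 2 and 1 counts with DMSO, 2, 2 and 1 with Ento, 4, 9 and 6 with AZD and 0, 0 and 1 with Ento+AZD. For both genes the AZD libraries lay above all others. The summed EGR3 counts of 44 with AZD against 14 with DMSO gave a ratio of 3.61 with a 95% counting interval of 1.94 to 7.13, and 3 counts with Ento+AZD against 44 gave 0.0727 (0.0144 to 0.227). For EGR2, 19 against 4 counts gave a ratio of 5.45 (1.81 to 22.04), and 1 against 19 gave 0.0561 (0.00135 to 0.353). These intervals cover counting error only. An exact two-sided permutation test of 3 against 3 libraries cannot go below p = 0.1, which it reached in these 4 comparisons.

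The low-count genes were also fitted with a filter at a minimum count of 3, an alternative chosen after the counts were seen, under which 20786 genes were tested. EGR2 and EGR3 passed that filter chiefly through the AZD libraries in which they were high, so their values there are a description, with no test. The fitted log2 fold change of EGR3 was 1.82 with AZD against DMSO (SE 0.48) and -3.67 with Ento+AZD against AZD (SE 0.65). For EGR2 these were 2.34 (SE 0.66) and -3.80 (SE 0.86). NR4A3, a relative of NR4A1, had 3, 3 and 10 counts with DMSO, 3, 1 and 1 with Ento, 4, 7 and 6 with AZD and 4, 1 and 1 with Ento+AZD. Its libraries overlapped between all groups except Ento and AZD, where 5 against 17 counts gave a ratio of 0.291 (0.0841 to 0.823).

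JUN and JUNB were lower when AZD was added to Ento. Against Ento alone, Ento+AZD had 2 of 7 members called, both lower, beside 12.2% of all genes called lower. JUN fell by 0.89 on the log2 scale (SE 0.20, edgeR adjusted p = 0.00695) and JUNB by 0.58 (SE 0.09, edgeR adjusted p = 0.00101), each in 3 of 3 replicate numbers. FOS stood at -0.64 (edgeR adjusted p = 0.0954). The JUN call was lost without Ento+AZD replicate 1 (-0.83) or Ento replicate 3 (-0.73), the JUNB call stood without any single library, and without the replicate number as a term the edgeR adjusted p was 0.747 for JUN and 0.352 for JUNB.

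Adding Ento to AZD lowered JUNB and IER2, the most abundant members per kb. Against AZD alone 2 of 7 members were called, both lower, beside 6.04% of all genes called lower. JUNB fell by 0.38 (SE 0.09, edgeR adjusted p = 0.0195) and IER2 by 0.47 (SE 0.10, edgeR adjusted p = 0.0104), each in 3 of 3 replicate numbers. JUN differed by 0.05 (95% interval -0.39 to 0.49) and FOS by -0.12 (95% interval -0.70 to 0.45). The IER2 call was lost without Ento+AZD replicate 1 (-0.37) or AZD replicate 3 (-0.41), and the JUNB call also without AZD replicate 1 (-0.28) or Ento+AZD replicate 3 (-0.37). Without the replicate number as a term the edgeR adjusted p was 0.612 for JUNB and 0.347 for IER2.

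The single agents differed from each other in JUN and IER2, in opposite directions. Ento against AZD gave 2 of 7 members called, beside 14.7% of all genes in either direction (8.99% higher and 5.73% lower with Ento). JUN was 0.94 higher on the log2 scale with Ento (SE 0.20, edgeR adjusted p = 0.00592), a fold of 1.92, and IER2 was -0.38 with Ento (SE 0.10, edgeR adjusted p = 0.0210). Both differences held in 3 of 3 replicate numbers. The JUN call was lost without Ento replicate 3 (0.79), the IER2 call also without Ento replicate 2 or AZD replicate 2 or 3, and without the replicate number as a term the edgeR adjusted p was 0.838 and 0.311.

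A departure from additive effects on the log2 scale was not found for the tested members. The interaction of Ento and AZD had 0 of 7 members called by edgeR or DESeq2, and 0 at an unadjusted p under 0.05 by either tool. Over all genes edgeR called 0 (0%), with 1652 at an unadjusted p under 0.05, and DESeq2 called 7, with 1198. For JUNB the interaction was -0.10 (95% interval -0.38 to 0.18), the amount by which the fall with Ento+AZD differed from the sum of the single falls. For FOS it was 0.26 (95% interval -0.50 to 1.02) and for EGR1 -0.90 (95% interval -1.98 to 0.18). For JUN it was -0.11 (95% interval -0.71 to 0.49) and for FOSB 0.14 (95% interval -0.42 to 0.71). The intervals of FOS, EGR1, JUN and FOSB were too wide to exclude a change of 1.5 times.

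The replicate number was the main source of spread for several members. Of all 16835 genes, JUN had the smallest p for a difference between replicate numbers (edgeR adjusted p = 4.00e-07), and 35.1% of all genes were called. The fitted log2 difference of JUN from replicate 1 was -3.69 in replicate 2 and -1.64 in replicate 3. DUSP1, a phosphatase of the MAP kinases and itself an immediate-early gene, ranked next with -2.01 and -0.66. JUNB (-0.96 and -0.25), FOS (-0.96 and -1.09) and IER2 (-0.41 and -0.22) shared the high fitted level in replicate 1. With Ento+AZD, however, FOS was at 4.55 CPM in replicate 1 and 4.85 CPM in replicate 3. EGR1 (-0.16 and -0.94) had no call for the replicate number (edgeR adjusted p = 0.0632). FOSB (0.27 and -0.59) was called (edgeR adjusted p = 0.00335), with its highest fitted level in replicate 2. NR4A1 (0.18 and -0.05) was not called (edgeR adjusted p = 0.292). The within-group SD of JUN was 1.92 on the log2 scale, larger than that of 99.99% of the tested genes, and 0.33 once the replicate number was removed. What the replicate numbers stood for, such as a day of harvest, was not tested.

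**Figure D3:**
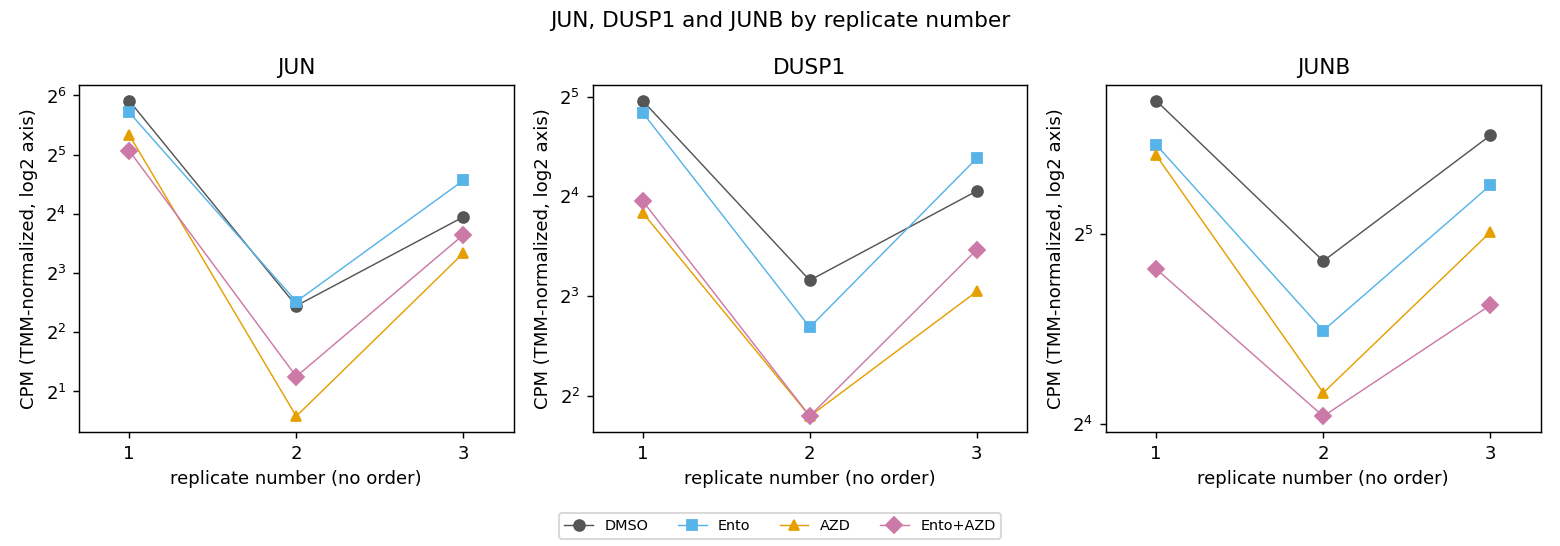
TMM-normalized CPM (vertical log2 axes, each panel with its own range) of JUN, DUSP1 and JUNB by replicate number (horizontal axis, in no order), with 1 marker and line for each treatment group. In all 3 genes replicate 2 was the lowest in every group and replicate 1 was the highest, and the JUN gap between replicates 1 and 2 was larger than the gap between groups.

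After removal of the replicate number, the 4 members that form AP-1 had positive correlations with each other over the 12 libraries. Pearson's r of log2 CPM ran from 0.508 for FOSB and JUN to 0.762 for FOS and FOSB, with 0.710 for FOS and JUNB and 0.689 for JUN and JUNB. This range was not particular to AP-1: r was 0.553 for NR4A1 and JUNB, 0.551 for EGR1 and IER2 and 0.515 for NR4A1 and IER2. The other pairs with a member outside AP-1 were below the range. For EGR1 it was 0.403 with FOS, -0.131 with JUN and 0.280 with JUNB. Before removal of the replicate number, r of FOSB was -0.233 with JUN and -0.214 with JUNB. The libraries share their treatment groups and depth, so these values describe the 12 libraries only. Among 14158 other genes with a mean of at least 1 CPM, those most like EGR1 were YWHAEP5 (r = 0.951), ERN1 (0.818), HIVEP3 (0.804), LOC101929918 (0.779) and LOC102724563 (0.765). YWHAEP5 is a pseudogene copy of YWHAE, so its reads are uncertain. Mean levels of ERN1, an endoplasmic reticulum stress sensor, were 3.88 CPM with DMSO, 3.55 with Ento, 3.48 with AZD and 3.08 with Ento+AZD. The single-agent means of ERN1 were thus below DMSO, while those of EGR1 were above it.

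Relatives of the members and the partners of AP-1 did not all move with them. JUND, the JUN protein that is least dependent on stimulation, rose in all 3 exposures. Its log2 fold change was 0.36 with Ento (edgeR adjusted p = 0.0247), 0.29 with AZD (edgeR adjusted p = 0.0311) and 0.57 with Ento+AZD (edgeR adjusted p = 0.000222). This was opposite to the called falls of JUN and JUNB both with AZD and with Ento+AZD. EGR4, NR4A2 and FOSL1 had at most 6 counts in any library, and FOSL2, with 3 to 13 counts, had no call against DMSO. Of 8 tested partners of FOS and JUN among the ATF, BATF, JDP and small MAF proteins, 0 rose and 5 fell with Ento+AZD, where 19.2% of all genes rose and 20.8% fell, and the list median was -0.82. BATF, a partner of JUN proteins in lymphocytes, fell by 1.35 on the log2 scale with Ento+AZD and by 1.15 with Ento (edgeR adjusted p = 0.000326 and 0.00560). JDP2, a repressor of AP-1, fell by 1.31 with Ento+AZD, 0.85 with Ento and 1.17 with AZD (edgeR adjusted p = 0.000359, 0.0215 and 0.00222). ATF3, a stress-responsive repressor and activator, had 23, 11 and 38 counts with DMSO and 11, 6 and 2 with Ento. It had 7, 0 and 1 counts with AZD and 5, 4 and 3 with Ento+AZD. Its log2 fold change was -1.71 with Ento (edgeR adjusted p = 0.0544), -2.94 with AZD (SE 0.61, edgeR adjusted p = 0.00482) and -2.22 with Ento+AZD (SE 0.57, edgeR adjusted p = 0.00657).

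Other rapid-response genes included both higher and lower calls. Of 23 tested, 4 rose and 7 fell with Ento+AZD, the former near the 19.2% of all genes that rose (20.8% fell). With Ento 3 rose and 2 fell (4.66% and 3.66% of all genes), and with AZD 1 rose and 5 fell (9.57% and 12.7%). CD69, a surface marker of early lymphocyte activation, had 28, 8 and 12 counts with DMSO, 113, 79 and 49 with Ento and 147, 29 and 24 with Ento+AZD. It rose by 2.61 on the log2 scale with Ento and 2.20 with Ento+AZD (edgeR adjusted p = 0.000829 and 0.000438). SGK1, a kinase of the AKT family, rose by 1.41 and 1.83 (edgeR adjusted p = 0.00233 and 3.98e-05). ZFP36, which promotes decay of AU-rich transcripts such as FOS, fell by 0.77 with AZD and 0.92 with Ento+AZD (edgeR adjusted p = 0.00125 and 8.02e-05). TRIB1, a pseudokinase that regulates protein turnover, fell by 1.15 with Ento+AZD (edgeR adjusted p = 0.000242).

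Of 8 tested co-repressors of EGR proteins and feedback genes of ERK, 1 rose and 5 fell with Ento+AZD, beside 19.2% and 20.8% of all genes. With AZD 1 rose and 3 fell (9.57% and 12.7% of all genes), and with Ento 2 fell (3.66%). NAB2, an EGR co-repressor that EGR1 itself induces, fell by 0.42 with Ento, 0.54 with AZD and 1.07 with Ento+AZD on the log2 scale (edgeR adjusted p = 0.0352, 0.00565 and 2.02e-05). Its level was 24.2 ± 2.01 CPM with DMSO and 11.5 ± 0.223 CPM with Ento+AZD (mean ± SD, n = 3). DUSP1 fell by 1.15 with AZD and 0.96 with Ento+AZD (edgeR adjusted p = 0.000253 and 0.000118). SPRED2, an inhibitor of the RAS route, rose by 0.46 with AZD and 0.55 with Ento+AZD (edgeR adjusted p = 0.0218 and 0.00377).

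Of 19 tested genes of the route from the receptor to ERK, 9 rose and 3 fell with Ento+AZD, beside 19.2% and 20.8% of all genes. With Ento 5 rose and 2 fell (4.66% and 3.66% of all genes), and with AZD 3 rose and 3 fell (9.57% and 12.7%). SYK, the target of Ento, rose by 0.47 with Ento and 0.59 with Ento+AZD (edgeR adjusted p = 0.00455 and 0.000112). MAPK3, which encodes ERK1, fell by 0.85 with AZD and 1.11 with Ento+AZD (edgeR adjusted p = 0.000911 and 2.91e-05). The RAS activators RASGRP1 and RASGRP3 changed in opposite directions with Ento+AZD, by -0.70 and 0.82 (edgeR adjusted p = 1.33e-05 and 2.16e-05). With AZD alone they changed by -0.55 and 0.77 (edgeR adjusted p = 0.000379 and 0.000253), and RASGRP1 also fell with Ento (-0.28, edgeR adjusted p = 0.0260). Of 16 factors that act upstream of immediate-early promoters, 6 rose and 3 fell with Ento+AZD, 3 rose and 2 fell with AZD, and 2 rose with Ento, and the shares that fell with Ento+AZD and AZD were near those of all genes. SRF rose by 0.40 with Ento (edgeR adjusted p = 0.0170). NFATC1, a calcium-regulated factor, fell by 0.43 with AZD and 0.48 with Ento+AZD (edgeR adjusted p = 0.00303 and 0.000410).

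Of 11 heat-shock genes, 0 rose and 5 fell with Ento+AZD (19.2% and 20.8% of all genes), 3 fell with Ento (3.66%), and 1 rose and 1 fell with AZD (9.57% and 12.7%). HSPB1 fell by 2.62 and HSPA1A by 0.81 on the log2 scale with Ento+AZD (edgeR adjusted p = 1.71e-06 and 0.000137). HSPB1 also fell by 1.24 with Ento and 1.31 with AZD (edgeR adjusted p = 0.000270 and 0.000198), and HSPA1A by 0.72 with Ento (edgeR adjusted p = 0.00240). The summed level of the 11 genes lay between 3481.3 and 4076.4 CPM with DMSO and between 3295.7 and 4113.5 CPM with Ento+AZD. With DMSO HSPA8 had a mean of 1225 CPM and HSP90AA1 1168, against 11.6 for HSPB1 and 21.8 for HSPA1A, so the sum cannot show their falls. Heat-shock and immediate-early genes both respond to handling of cells, and the part of this in the falls of JUN, FOS, JUNB and IER2 was not tested. Of 9 B-cell markers, 4 rose and 0 fell with Ento+AZD, among them CD79B, a signalling subunit of the B-cell receptor, by 0.56 (edgeR adjusted p = 0.00159). CD79B rose by 0.55 with Ento alone (edgeR adjusted p = 0.0107). CD3E, the tested T-cell marker, had 9 to 51 counts per library and fell by 1.02 with AZD (edgeR adjusted p = 0.0241), with CD3D and CD2 at 0. The summed level of the 4 T-cell markers was 0.864 to 1.71 CPM with DMSO and 0.534 to 0.823 CPM with AZD.

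**Figure D4:**
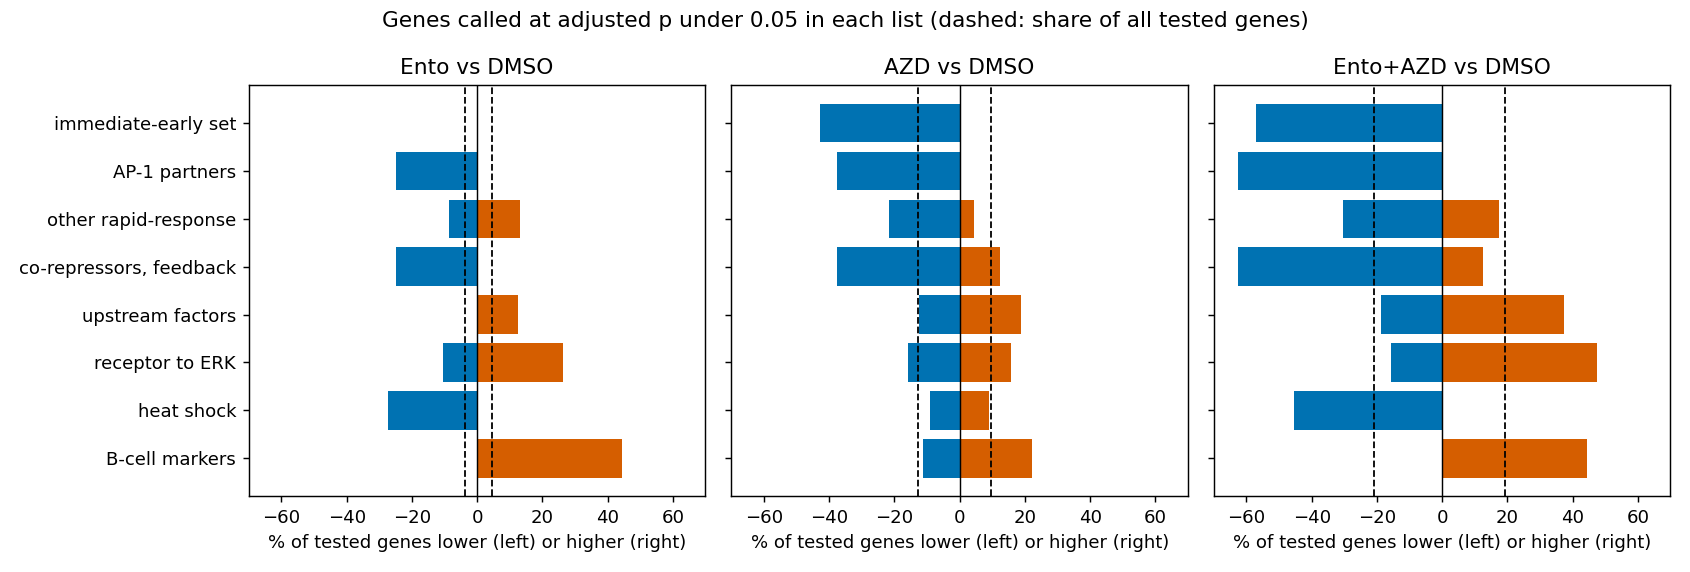
Percent of the tested genes of each list (horizontal axis) called lower (bars to the left) or higher (bars to the right) at an edgeR adjusted p under 0.05 for Ento, AZD and Ento+AZD against DMSO, with the share of all 16835 tested genes as dashed lines. With Ento+AZD the bars of the immediate-early set (4 of 7), the AP-1 partners (5 of 8) and the co-repressor and feedback genes (5 of 8) pass the dashed line at 20.8% to the left, while the receptor-to-ERK bar (9 of 19) passes the line at 19.2% to the right.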

How the data were processed

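RNA of SU-DHL-4 was measured in 4 groups of 3 libraries. Per the study's methods and the labels, poly(A) libraries were sequenced as single reads, and the authors used TrimGalore and CutAdapt for trimming, GRCh38.p13 as the reference and Rsubread for counting. The deposited values are unnormalized counts of reads for 46863 symbols. Strand setting and annotation release are not given in the sources used here. The second deposited table of log2 values was not used.

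Counts were tested with edgeR 4.0.16 in R 4.3.3, after TMM normalization. The filter (filterByExpr by group, at least 10 counts and a total of 15) kept 16835 genes. One model of the 12 libraries held treatment group and replicate number. The study's methods name group and batch, and the replicate number was assumed to be that batch. The contrasts were tested with glmQLFTest (quasi-likelihood), with p-values adjusted after Benjamini-Hochberg over all tested genes. A call was an adjusted p under 0.05, and a DEG also had an absolute log2 fold change over 1. The standard error was taken as the size of the log2 fold change over the root of its F value. DESeq2 1.42.0, other normalization and filters, no replicate term and the omission of single libraries were alternatives. The replicate number was taken to pair the libraries. Deviations from group means correlated between 0.213 and 0.703 in 18 same-numbered pairs. In 36 other pairs they correlated between -0.627 and 0.325, so the ranges overlapped. Deviations within a group cancel, so positive same-numbered values make the others negative on balance, and the ranges are not independent. The series calls its replicates biological, without saying whether cultures were separate, so p-values cover the spread between these libraries.

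Levels per kb used the canonical GENCODE transcript. Correlations used log2 CPM (prior count 2) after limma 3.58.1 had removed the replicate number. Scripts were tested on simulated data.

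The members and lists were chosen with earlier results of these data known. All 10 members are named. Of each list and exposure against DMSO, up to 3 genes that rose and 3 that fell with the smallest p were eligible for naming, with every other family member, and the 5 genes most like EGR1. CD3D, CD3E, CD2, CD8A, CD14, LYZ, ITGAM and CSF1R are marker checks.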

Additional observations from a re-analysis of the deposited data

Results flagged for a closer look

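The counts of EGR3 moved in opposite directions with AZD in the absence and presence of Ento. They were higher with AZD than with DMSO in 3 of 3 replicate numbers (9, 20 and 15 against 3, 5 and 6) and lower with Ento+AZD than with Ento in 3 of 3 (2, 1 and 0 against 6, 4 and 2). The gene had too few counts for the filter used, and the second difference rests on 3 against 12 counts. A gene below the filter was flagged only where all 3 replicate numbers moved in opposite directions, so that agreement was fixed by the choice. With a filter at a minimum count of 3, chosen after the counts were seen, the fitted interaction of the agents was -3.64 on the log2 scale (SE 0.97). In the same fit Ento+AZD against Ento gave -1.81 (SE 0.85). Neither value was past the adjusted threshold there. EGR3 passed that filter chiefly through the AZD libraries in which it was high, so both values are a description, with no test.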

How the results depend on the processing

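With the replicate number left out of the model (no replicate block), 0 members were called in AZD vs DMSO, Ento+AZD vs DMSO, Ento+AZD vs Ento, Ento+AZD vs AZD and Ento vs AZD, where the paired fit called 3, 4, 2, 2 and 2, and JUN in Ento+AZD vs AZD turned to -0.11. Over all genes this fit called 36 with Ento, 326 with AZD and 2398 with Ento+AZD against DMSO, 206 and 17 with Ento+AZD against Ento and against AZD, and 539 for Ento against AZD, where the paired fit called 1401, 3745, 6736, 3440, 2001 and 2478. With no filter on low counts, of the 7 members that passed the filter those called were 1 in Ento vs DMSO (IER2), 4 in Ento+AZD vs Ento and 1 in the interaction (EGR1), and the EGR1 adjusted p in Ento+AZD vs DMSO went from 0.118 to 6.65e-06. EGR2 and EGR3, which enter that fit chiefly by the AZD libraries in which they were high, are not in these counts. There EGR3 was past the threshold in AZD vs DMSO, Ento+AZD vs AZD, Ento vs AZD and the interaction, and EGR2 in Ento+AZD vs AZD, which is a description and no support. All genes called went to 2294 with Ento and 278 in the interaction. The cause was not tested. DESeq2 and RLE normalization changed no member's call, and DESeq2 called 7 of all genes in the interaction against 0, but EGR1 changed sign with DESeq2 in Ento vs DMSO (-0.0019) and Ento vs AZD (-0.061), and with RLE normalization in Ento vs AZD (-0.0011).

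Without single libraries or the 4 libraries of 1 replicate number, the members called ranged from 0 to 1 in Ento vs DMSO, 1 to 3 in AZD vs DMSO, 2 to 5 in Ento+AZD vs DMSO, 1 to 3 in Ento+AZD vs Ento, 0 to 2 in Ento+AZD vs AZD and 0 to 2 in Ento vs AZD, and stayed at 0 in the interaction. The 1 call with Ento was JUNB without AZD replicate 1 and IER2 without DMSO or Ento+AZD replicate 2. All genes called ranged over these omissions from 427 to 1681 with Ento, 987 to 4112 with AZD and 4549 to 6765 with Ento+AZD against DMSO, 1083 to 4083 and 207 to 2613 with Ento+AZD against Ento and against AZD, 902 to 3028 for Ento against AZD and 0 to 213 in the interaction. Uncalled members changed sign without single libraries over these ranges of log2 fold change: with Ento, EGR1 -0.36 to 0.51, FOSB -0.27 to 0.059 and JUN -0.044 to 0.42. With AZD they were EGR1 -0.36 to 0.51, NR4A1 -0.13 to 0.055 and IER2 -0.013 to 0.14. In Ento+AZD vs Ento they were IER2 -0.19 to 0.022 and NR4A1 -0.28 to 0.062, and in Ento+AZD vs AZD JUN -0.10 to 0.40, FOS -0.53 to 0.27 and FOSB -0.17 to 0.091. In Ento vs AZD EGR1 ran from -0.32 to 0.41. In the interaction they were NR4A1 -0.25 to 0.10, FOS -0.13 to 0.66, FOSB -0.072 to 0.26, JUN -0.35 to 0.25 and JUNB -0.18 to 0.0032. Where a group is left with fewer libraries, they are assumed to vary like the other groups. Depth limits EGR2, EGR3 and NR4A3, where 1 count decides a sizeable part of a value.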
